A study of Mus musculus with 12 samples.

Results

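The cytosolic ribosome joins a large (60S) and a small (40S) subunit, and each carries a set of ribosomal proteins that is needed in near-equal copy number with the ribosomal RNAs. The genes for these proteins are among the most highly transcribed in dividing cells. Many begin their mRNA in a run of C and T bases (the TOP element), through which mTOR signalling adjusts their translation, and promoter factors of the ETS family and YY1 are known to bind near their starts. The genes described here are those whose symbol in the deposited expression tables has the form of a mouse ribosomal protein gene (Rpl or Rps and a number, Rplp0 to Rplp2, or Rpsa). The rule used no measured value. It found 87 genes among 21728 genes listed in any library. By symbol, 52 of the 87 were assigned to the large and 35 to the small subunit. All 87 entered every test. Of these, 83 are annotated as protein-coding and 4 as pseudogenes (Rpl6l, Rps3a2, Rps3a3 and Rps4l). Paralogs, which are later copies of another member, make up 10 of the 87, and 4 members lie on the X chromosome.

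The 12 mRNA libraries came from C57BL/6 mouse embryonic stem cells with the genotype Blimp1-mVenus; Stella-ECFP (BVSC), in which fluorescent reporters mark the early germ cell genes Prdm1 and Dppa3. Epiblast-like cells (EpiLCs) are a culture model of the formative epiblast and were collected after 48 h. Primordial germ cell-like cells (PGCLCs) were grown from them as aggregates to day 5, and only cells positive for both reporters were sorted. Each stage had 3 untreated libraries and 3 libraries exposed to 100 nM bisphenol A (BPA), a plasticiser with oestrogen-like activity. The labels place the exposure in the last 24 h of EpiLC culture, and they do not say whether BPA was also present in the PGCLC medium. The labels name no separate cultures for the 3 libraries of a group, so each p-value reflects only library-to-library spread, which may be technical.

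Gene counts per library ran from 11785338 to 22029195 in EpiLCs and from 30375633 to 34309195 in PGCLCs. The formative epiblast markers summed to 2021 to 2105 CPM (counts scaled to library size) in untreated EpiLCs and 827 to 886 CPM in untreated PGCLCs, although Otx2, 1 of the 8, was higher in PGCLCs. Early germ cell markers summed to 102 to 108 CPM in untreated EpiLCs, where Prdm14 was not listed, and to 1219 to 1372 CPM in untreated PGCLCs. All 9 of these markers were higher in untreated PGCLCs than in untreated EpiLCs. Replicate 3 of the untreated EpiLCs differed from the remaining EpiLC libraries, and results that rest on it are given with and without it. Library names follow a different scheme in each stage and, among PGCLCs, in each treatment group, so neither stage nor treatment of PGCLCs can be told apart from a batch that followed those names.

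The members were matched to RefSeq start-site windows (GRCm38) to show what the starts of these genes have in common. Windows were found for 63 of the 87 members (75 windows), against 32851 windows of all genes. The ETS core CCGGAAG, read on both strands over 250 bases before to 50 after the start, was in 36.0% of member windows and 8.86% of all windows. The YY1 core AAGATGGC, read the same way, was in 10.7% of member windows and 2.75% of all. On the gene's strand within 20 bases of the start, the pyrimidine runs CTTTCC and CTTTTC, which can overlap each other, were in 14.7% and 6.67% of member windows and in 1.95% and 1.43% of all windows. A stretch with at least 9 of 10 bases C or T, counted from 2 bases before the start, was in 26.7% of member windows and 3.18% of all. TATAAA, 40 to 15 bases before the start, was in 1.33% and 1.99%. The examples run from 60 bases before the start to 20 bases from it, 5′ to 3′, with matched motifs in capitals. They were chosen with the values known. They show a start with each kind of run, an ETS core, a TATAAA and, in Rpl36a, no match in the bases printed. The ETS and YY1 spans reach beyond the printed bases. The tataaa in Rpl36a lies after the start, outside the span searched.

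Rps27, chr3:90213629-90213708, minus strand: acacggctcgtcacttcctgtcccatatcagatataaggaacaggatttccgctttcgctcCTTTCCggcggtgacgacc
Rpl38, chr11:114668520-114668599, plus strand: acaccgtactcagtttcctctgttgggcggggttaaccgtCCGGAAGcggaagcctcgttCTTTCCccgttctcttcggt
Rpl27a, chr7:109519135-109519214, plus strand: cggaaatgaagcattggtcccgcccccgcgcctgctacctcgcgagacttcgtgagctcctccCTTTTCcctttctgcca
Rps15a, chr7:118116128-118116207, minus strand: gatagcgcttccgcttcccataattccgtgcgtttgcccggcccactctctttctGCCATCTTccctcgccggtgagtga
Rpl22l1, chr3:28805448-28805527, plus strand: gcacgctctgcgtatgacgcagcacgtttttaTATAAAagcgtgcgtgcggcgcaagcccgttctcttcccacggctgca
Rpl36a, chrX:134585594-134585673, plus strand: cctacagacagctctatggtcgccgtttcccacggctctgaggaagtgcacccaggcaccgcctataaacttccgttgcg
In Rps15a the capitals are the YY1 core read on the other strand. The start of Rpl38 has 10 and that of Rps27 has 9 pyrimidines among the 10 bases counted, and Rpl22l1 is the only matched member with TATAAA in the span searched. A match describes these letters and shows no binding.

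Ribosomal protein genes took a larger part of the counts in EpiLCs than in PGCLCs. They held 9.12%, 8.41% and 14.4% of gene counts in untreated EpiLC replicates 1 to 3. In BPA EpiLCs the values were 9.06%, 8.50% and 9.49%. In untreated PGCLCs they held 6.24%, 6.48% and 6.63%, and in BPA PGCLCs 5.02%, 4.93% and 4.86%. Every PGCLC library thus lay below every EpiLC library, and the BPA PGCLC libraries lay below the untreated ones without overlap. The group means were 10.6% ± 3.28 (SD, n = 3) for untreated EpiLCs, 8.77% ± 0.50 (n = 2) without replicate 3, 9.02% ± 0.50 (n = 3) for BPA EpiLCs, 6.45% ± 0.20 (n = 3) for untreated PGCLCs and 4.94% ± 0.08 (n = 3) for BPA PGCLCs. No test was made of these shares.

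**Figure D1:**
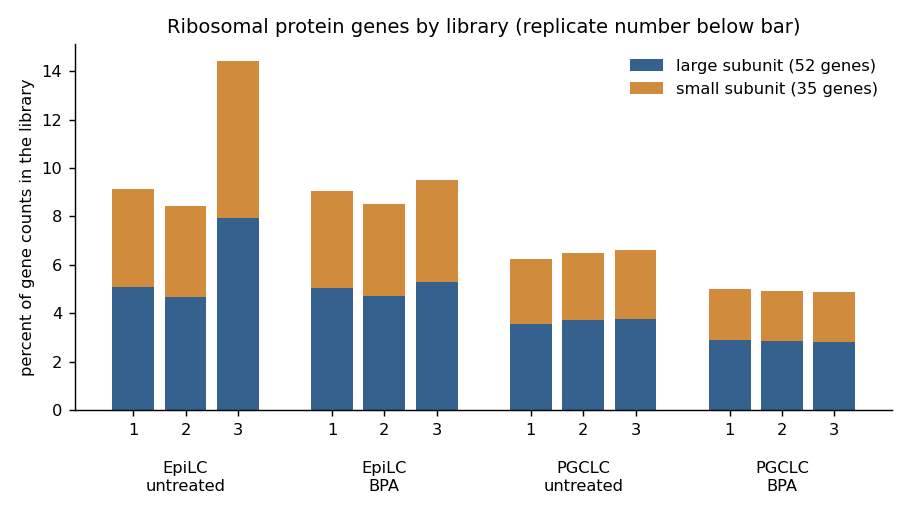
Percent of each library's gene counts in large subunit (blue, lower part) and small subunit (orange, upper part) ribosomal protein genes, 1 bar per library, with replicate number and group below. Untreated EpiLC replicate 3 reaches 14.4%, the other EpiLC libraries lie between 8.41% and 9.49%, and PGCLC libraries lie between 4.86% and 6.63%.

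The balance between subunits moved less than the total. The ratio of large to small subunit counts was 1.25, 1.24 and 1.22 in untreated EpiLCs, with 1.25 in each BPA EpiLC library. Untreated PGCLCs had 1.31, 1.34 and 1.32, and PGCLCs exposed to BPA had 1.36, 1.38 and 1.36. The 3 PGCLC values of each treatment lay above all EpiLC values, and the BPA PGCLC values lay above the untreated ones. As a ratio of median counts per kilobase of transcript the large subunit lay below the small one, at 0.75 ± 0.02 (SD, n = 3) in untreated EpiLCs, 0.71 ± 0.04 in BPA EpiLCs, 0.86 ± 0.003 in untreated PGCLCs and 0.91 ± 0.02 in BPA PGCLCs. Between genes, levels per kilobase over all 12 libraries were highest for Rplp1 (3655 CPM per kilobase), an acidic protein of the large subunit stalk that recruits elongation factors, followed by Rps12 (2756), Rpl8 (2377), Rps18 (2206) and Rps29 (2057). Lengths are those of 1 annotated transcript per gene, and for Rps15a (5130 bases) and Rps20 (3706 bases) that transcript is far longer than for the other members.

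In untreated EpiLC replicate 3 all 87 members were above the mean of replicates 1 and 2. The median difference was 0.85 on the log2 scale, with a range from 0.12 to 1.48, and it was 0.83 for the large and 0.88 for the small subunit. Other protein-coding genes in that library followed transcript length: their median difference was 0.97 for transcripts up to 600 bases, 0.78 from 601 to 1000, 0.55 from 1001 to 1500, 0.10 from 2001 to 3000 and -0.67 above 5000 bases. The members of up to 600 bases had a median of 0.97, the same as other genes of that length, and the 14 members of 1001 to 1500 bases had 0.80. The few members with longer annotated transcripts did not follow the trend of other genes. The 4 of 1501 to 2000 bases had a median of 0.75 (other genes 0.34) and the 3 of 2001 to 3000 bases 0.72 (0.10). Rps20 (3706 bases) had 1.00, where other genes of 3001 to 5000 bases had -0.22. Rps15a (5130 bases) had 0.81, where those above 5000 bases had -0.67. These 2 lengths are each that of 1 annotated transcript, far longer than for the other members, so their length class is uncertain. The part that RNA or library quality had in this library was not tested.

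**Figure D2:**
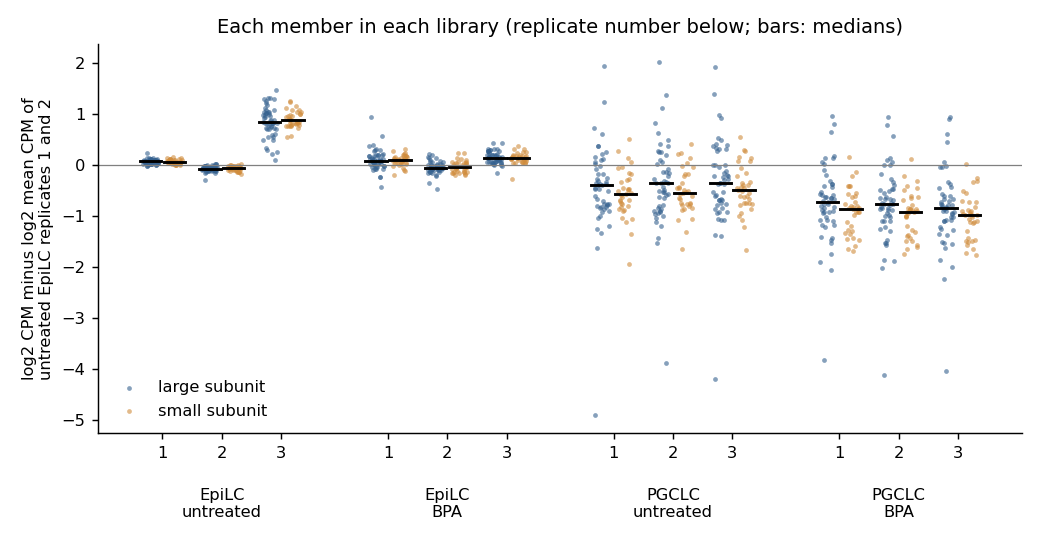
Each point is 1 ribosomal protein gene in 1 library (86 genes, without Rpl24), as log2 CPM minus the log2 mean CPM of untreated EpiLC replicates 1 and 2, with large subunit genes in blue, small subunit genes in orange and medians as black bars. Untreated EpiLC replicate 3 has a median of 0.86 and no gene below 0, while medians in PGCLC libraries lie between -0.42 and -0.92.

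In EpiLCs no ribosomal protein gene passed the test for BPA, by edgeR's quasi-likelihood test with Benjamini-Hochberg adjustment over all genes at 0.05. The background was the same, since 0% of the 15252 genes tested were called. At an unadjusted p under 0.05 there were 118 genes (0.774%), none of them a member, and DESeq2 called 4 genes higher and 12 lower, also with no member. In no member did the 3 BPA libraries lie all below or all above the untreated ones, which held for 3.53% and 2.5% of all genes. The fitted changes of 84 of the 87 members were negative, with a median of -0.27 against 0.00 over all genes, a range from -0.54 to 0.30, and a median of -0.26 for the large and -0.27 for the small subunit. Without untreated replicate 3 the median was 0.06 and 70 of 87 were positive, so the negative sign of the median depends on that library. With an offset that removes the transcript-length trend of the other genes and all libraries kept, the median was -0.0066, with 39 members positive and 48 negative.

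Single libraries show how the EpiLC members with the smallest p were spread. Rpl37a, a zinc-binding protein of the large subunit, stood at 523, 483 and 1063 CPM in untreated and 426, 364 and 609 CPM in BPA EpiLCs, a log2 change of -0.54 ± 0.33 (SE; adjusted p = 0.943). Rpsa, the small subunit protein also known as the laminin receptor, stood at 3428, 3330 and 5772 CPM against 3230, 3031 and 3485 CPM (-0.34 ± 0.21, adjusted p = 0.943). In both genes the groups overlap, and untreated replicate 3 is the highest of the 6 libraries. Rpl19 (-0.34 ± 0.21), Rpl23a (-0.30 ± 0.15) and Rps14 (-0.40 ± 0.26) had the same adjusted p of 0.943. Rpl23a stood at 326, 331 and 389 CPM in untreated and 244, 258 and 337 CPM in BPA EpiLCs, and its untreated replicate 3 lay closer to the others than in Rpl37a and Rpsa.

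In PGCLCs, 68 of the 87 ribosomal protein genes were lower with BPA and 1 was higher. Over all 16753 genes tested, 5.72% were called lower and 8.13% higher. The large subunit had 39 of 52 members lower and 1 higher, and the small subunit had 29 of 35 lower and none higher. The median log2 change was -0.40 over the members (-0.39 large, -0.42 small) against 0.01 over all genes. In 76 members all 3 BPA libraries lay below all 3 untreated libraries, which held for 17.3% of all genes. The 18 members that did not pass include the abundant genes Rpl3 (-0.05 ± 0.04), Rpl4 (-0.09 ± 0.05), Rpl6 (-0.05 ± 0.06) and Rpsa (-0.09 ± 0.05), and Rpl24, which lay under 1 CPM in every PGCLC library.

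Rps29 and Rpl21 had the largest falls of their subunits. Rps29 (chr12:69157722-69159186, minus strand), a zinc-binding protein of the small subunit head, stood at 662, 717 and 729 CPM in untreated and 332, 304 and 294 CPM in BPA PGCLCs. The groups do not overlap, and the log2 change was -1.17 ± 0.07 (adjusted p = 0.000206), a 2.25-fold lower level. Rpl21 (chr5:146832890-146837032, plus strand), a large subunit protein, stood at 960, 1023 and 958 CPM against 486, 485 and 471 CPM (-1.02 ± 0.05, adjusted p = 0.000176). Much of its sequence is shared with other copies: 50-base stretches of its transcript recur in transcripts of 82 other genes, so its reads may be divided or discarded among them.

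Rpl36a, an X-linked large subunit gene whose promoter is printed above, stood at 478, 511 and 488 CPM in untreated and 278, 269 and 250 CPM in BPA PGCLCs (-0.88 ± 0.06, adjusted p = 0.00036). Rpl22l1, the paralog of Rpl22 and the member with TATAAA, stood at 56.1, 56.2 and 54.9 CPM against 31.0, 31.2 and 29.0 CPM (-0.86 ± 0.09, adjusted p = 0.00138). Rpl36 fell by a similar amount (-0.86 ± 0.07, adjusted p = 0.000826). Among the small subunit genes, Rps28 stood at 596, 653 and 739 CPM against 391, 360 and 351 CPM (-0.84 ± 0.08, adjusted p = 0.00139). Rps27, with the pyrimidine run at its start, was at 485, 570 and 567 CPM against 328, 306 and 294 CPM (-0.79 ± 0.08, adjusted p = 0.00135), and Rps25 changed by -0.74 ± 0.05 (adjusted p = 0.000379). In each of these genes the BPA libraries lay together and below every untreated library.

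On the X chromosome the median change of genes other than members was -0.29, with 27.5% of 513 positive. The 4 X-linked members were all called lower: Rpl36a above, Rpl39 (-0.70 ± 0.09), Rps4x (-0.40 ± 0.05) and Rpl10 (-0.37 ± 0.06). A fall of the members was not particular to this chromosome. The members' median was -0.56 on X, and lower on chromosomes 3 (-0.71), 12 (-0.70), 1 (-0.63) and 9 (-0.59). Chromosome 8 was shifted the other way, with a median of 0.17 and 71.9% of 745 other genes positive. Its 2 members had a median of 0.01.

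Of the stalk genes, Rplp1 and Rplp2 were called lower with BPA and Rplp0 was not. Rplp1 stood at 1625, 1738 and 1845 CPM in untreated and 1183, 1083 and 1112 CPM in BPA PGCLCs (-0.61 ± 0.06, adjusted p = 0.00116), and Rplp2 changed by -0.54 ± 0.06 (adjusted p = 0.00188). Rplp0, which anchors them to the ribosome, stood at 1572, 1482 and 1622 CPM against 1414, 1376 and 1283 CPM (-0.19 ± 0.05, adjusted p = 0.0579). The BPA values of Rplp0 also lay below all of its untreated values. The difference between these genes was not tested. Their annotated transcripts have 499 (Rplp1), 964 (Rplp2) and 1358 bases (Rplp0), and change also moved with length among other genes. Of the other members most abundant per kilobase, Rps12 (-0.49 ± 0.05), Rps18 (-0.38 ± 0.06) and Rpl8 (-0.29 ± 0.05) fell.

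Among the paralogs, Rpl10l (-0.69 ± 0.14, adjusted p = 0.0194), Rps27l (-0.63 ± 0.07, adjusted p = 0.00185), Rps4l (-0.38 ± 0.06, adjusted p = 0.00766) and Rpl7l1 (-0.31 ± 0.06, adjusted p = 0.0132) fell with Rpl22l1. Rpl10l is a copy of the X-linked Rpl10 known for its role in male meiosis, and it stood at 20.8, 20.3 and 24.8 CPM in untreated and 14.8, 13.8 and 12 CPM in BPA PGCLCs. The parent genes Rpl22 (-0.54 ± 0.06), Rps27, Rps3a1 (-0.60 ± 0.05) and Rpl7 (-0.30 ± 0.06) fell too. Rpl39l, a testis-enriched copy of Rpl39, changed by -0.08 ± 0.13 (adjusted p = 0.774), and Rpl3l, a copy of Rpl3 known from muscle, by -0.39 ± 0.36 at 2.00 to 3.98 CPM in PGCLCs (adjusted p = 0.567). The annotated pseudogenes Rpl6l (0.28 ± 0.31), Rps3a2 (0.30 ± 0.20) and Rps3a3 (-0.01 ± 0.08) did not pass, while Rps4l, the other annotated pseudogene, is among the falls above.

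Several measures moved with these falls. Other protein-coding genes with transcripts up to 600 bases had a median change of -0.39 and those of 601 to 1000 bases -0.23, while medians above 1500 bases lay between -0.01 and 0.03. The members had -0.68, -0.40 and -0.31 in the first 3 length classes, below the other genes in each. Over the 76 members other than paralogs and Rpl24, the change correlated with log2 transcript length at r = 0.45 (Spearman 0.55) and with log2 mean CPM at r = 0.34 (Spearman 0.55). These are descriptions over genes that share the same libraries. With an offset that removes the length trend of the other genes, 35 members were called lower, all of them among the 68, and the median was -0.17. Rps29 then changed by -0.65 (adjusted p = 0.00065) and Rpl21 by -0.81 (adjusted p = 0.00016), while Rps18 came to 0.00 (adjusted p = 0.99).

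**Figure D3:**
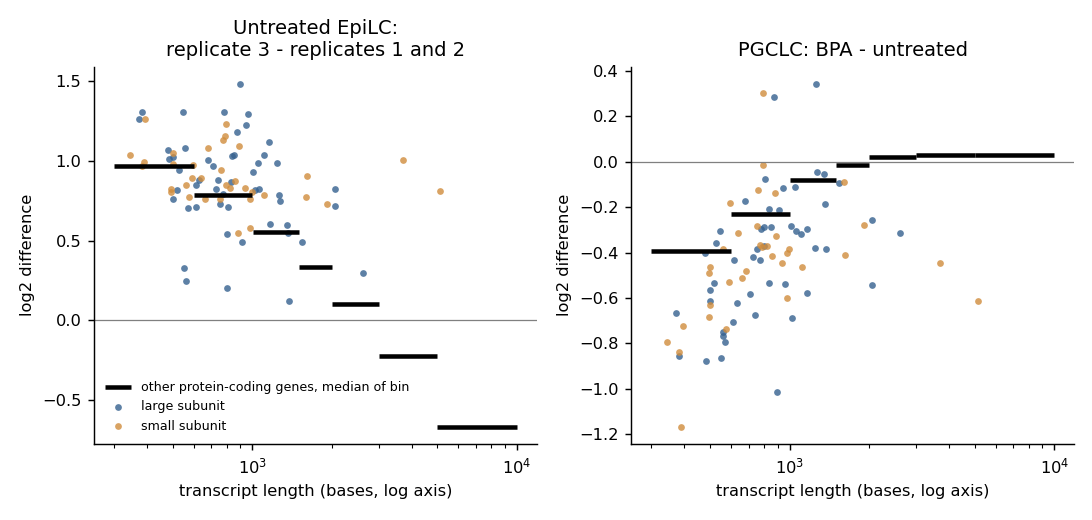
Log2 difference of each ribosomal protein gene against transcript length (log axis) for untreated EpiLC replicate 3 minus replicates 1 and 2 (left) and for BPA minus untreated PGCLCs (right). Black lines are medians of other protein-coding genes by length class, which fall from 0.97 to -0.67 on the left and run from -0.39 up to 0.03 on the right. The members, in blue (large) and orange (small), mostly lie below those lines on the right.

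Endoderm markers summed to 864 to 1339 CPM in untreated and 2953 to 6454 CPM in BPA PGCLCs, with 5 of 12 called higher. Early germ cell markers summed to 1219 to 1372 and 1002 to 1129 CPM, with 4 of 9 called lower. Mesoderm, blood and endothelium markers summed to 312 to 344 and 302 to 337 CPM. In sorted bulk samples, fewer cells of a type and less RNA per cell cannot be told apart. A summary row of reads aligned to more than 1 place is listed in all 3 BPA PGCLC libraries (0.455% to 0.522%) and in no untreated PGCLC library (among EpiLCs, in BPA replicate 2 alone, at 9.82%), a difference in the deposited files that cannot be told apart from the treatment. The part of these measures in the falls was not tested.

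Genes of other steps of ribosome production were also among the calls, to be read against the 5.72% of all genes called lower and 8.13% called higher. The counts of these lists were made without the length offset, while other genes with short transcripts also fell. The part of transcript length in them was not tested. Of 38 ribosome biogenesis genes, 17 were lower with BPA in PGCLCs and none higher, with a median of -0.24. Nhp2 (-0.55 ± 0.07), Gar1 (-0.52 ± 0.09) and Nop10 (-0.44 ± 0.09), which belong to the box H/ACA particles that guide pseudouridylation of ribosomal RNA, fell most. RNA polymerase I and III genes had 5 of 27 lower, among them Polr3k (-0.75 ± 0.13). Translation factors known to have TOP mRNAs had 6 of 16 lower, including Eef1b2 (-0.40 ± 0.05), a subunit of the elongation factor 1 complex. Of 77 mitochondrial ribosomal protein genes, 16 were lower, with a median of -0.20. Of 20 regulators of ribosomal protein synthesis 1 passed, Eif4ebp2 (0.30 ± 0.08, adjusted p = 0.0449), a translational repressor under mTOR control, and it was higher. Of 10 p53 response genes, 1 fell (Eda2r, -0.85 ± 0.10). Single calls in lists of 20 and 10 genes are near the share over all genes. None of the 5 ribosomal protein genes outside the symbol rule passed. They include Fau (-0.11 ± 0.08) and Rack1 (-0.16 ± 0.07).

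Between stages, 61 ribosomal protein genes were lower in untreated PGCLCs than in untreated EpiLCs and 3 were higher. Of the 17608 genes tested, 25.2% were called lower and 30.4% higher, 55.6% in all. The large subunit had 34 lower and 3 higher, the small subunit 27 lower and none higher. The median was -0.80 (-0.72 large, -0.85 small) against 0.07 over all genes. Without untreated EpiLC replicate 3, 70 members had a negative and 17 a positive change, 8 were called higher, and the median was -0.52. In the BPA groups, which hold no library of the untreated comparison but share its fit, 68 were lower and 2 higher, where 25% of all genes were called lower and 32.5% higher (57.5% in all). The members' median was -0.92, against 0.13 over all genes. All 3 PGCLC libraries lay below all 3 EpiLC libraries in 78 members and above them in 3, against 32.7% and 40.5% of all genes. Of the 87, 84 had the same sign in both comparisons, 59 were lower in both and 2 higher in both. As between treatments, other protein-coding genes of up to 600 bases were also lower, with medians of -0.70 in untreated and -0.84 in BPA cells. With the length offset, 53 of the 61 and all 68 remained lower, but the medians came to -0.41 in untreated and -0.61 in BPA cells, and positive members rose from 7 to 23 in untreated cells.

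**Figure D4:**
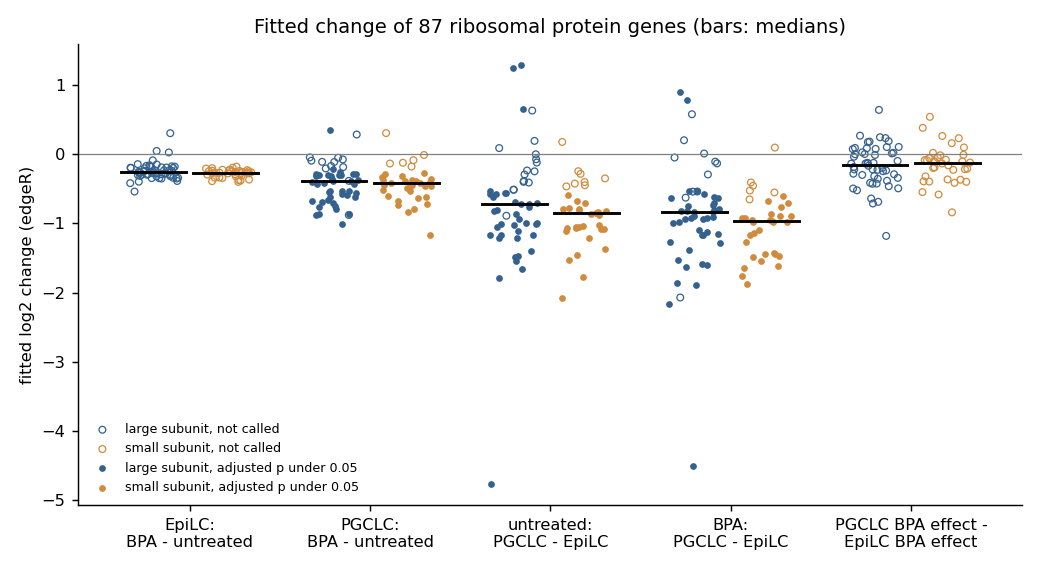
Fitted log2 change of every ribosomal protein gene in each comparison, with large subunit genes in blue and small in orange, filled points for adjusted p under 0.05, open points for genes not called and black bars for medians. In EpiLCs no point is filled, in PGCLCs 68 filled points lie below 0, and in the stage comparisons 61 and 68 do.

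The largest fall between untreated stages was in an annotated copy. Rpl6l (chr10:111125851-111126721, plus strand), annotated as a processed pseudogene of Rpl6, stood at 64.4, 62.6 and 144 CPM in untreated EpiLCs and 2.10, 4.29 and 3.47 CPM in untreated PGCLCs (-4.77 ± 0.39, adjusted p = 1.19e-06). Its parent Rpl6 fell by less (-1.05 ± 0.17). Rps3a2 (-2.08 ± 0.26) and Rps3a3 (-1.52 ± 0.27), copies of Rps3a1 (-1.08 ± 0.14), also fell. Reads of such copies can come from their parents, and 76.4% of the 50-base stretches of Rpl6l recur elsewhere.

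Among protein-coding members, Rps19 (chr7:24884371-24889806, plus strand), known from Diamond-Blackfan anaemia, stood at 1086, 913 and 2180 CPM in untreated EpiLCs and 392, 400 and 430 CPM in untreated PGCLCs (-1.77 ± 0.25, adjusted p = 9.2e-05). Rpl39 (-1.67 ± 0.18), Rpl31 (-1.54 ± 0.21) and Rps27l (-1.46 ± 0.21), a copy of Rps27 known as a p53 target, also fell. No untreated PGCLC value of Rps19 reached any untreated EpiLC value.

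The members called higher in PGCLCs were 3 large subunit genes. Rpl23a (chr11:78180932-78183584, minus strand), near the exit of the nascent chain tunnel, stood at 326, 331 and 389 CPM in untreated EpiLCs and 770, 852 and 864 CPM in untreated PGCLCs (1.25 ± 0.13, adjusted p = 6.77e-06). In BPA cells it stood at 244, 258 and 337 CPM against 515, 487 and 448 CPM (0.79 ± 0.13, adjusted p = 0.00022). Of the 50-base stretches of Rpl23a, 82.6% recur in transcripts of other genes. Tlcd1 on the other strand overlaps 55.4% of its transcript, so the level of Rpl23a is uncertain. Rpl21 stood at 272, 231 and 701 CPM in untreated EpiLCs and 960, 1023 and 958 CPM in untreated PGCLCs (1.29 ± 0.32, adjusted p = 0.00478). In BPA cells its change was 0.58 ± 0.32 (adjusted p = 0.135). Rpl39l (chr16:10170226-10174911, plus strand) stood at 16.5, 13.4 and 24.4 CPM against 24.7, 32.3 and 28.3 CPM (0.66 ± 0.19, adjusted p = 0.0128), and at 12.7, 14.9 and 15.4 CPM against 25.9, 25.7 and 28.5 CPM in BPA cells (0.90 ± 0.20, adjusted p = 0.00192). The untreated call of Rpl39l was lost without untreated EpiLC replicate 1 (adjusted p = 0.0517) and without untreated PGCLC replicate 2 (adjusted p = 0.0513). Its parent Rpl39 changed the other way, and no part of the transcript of Rpl39l recurs elsewhere in 50-base stretches.

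**Figure D5:**
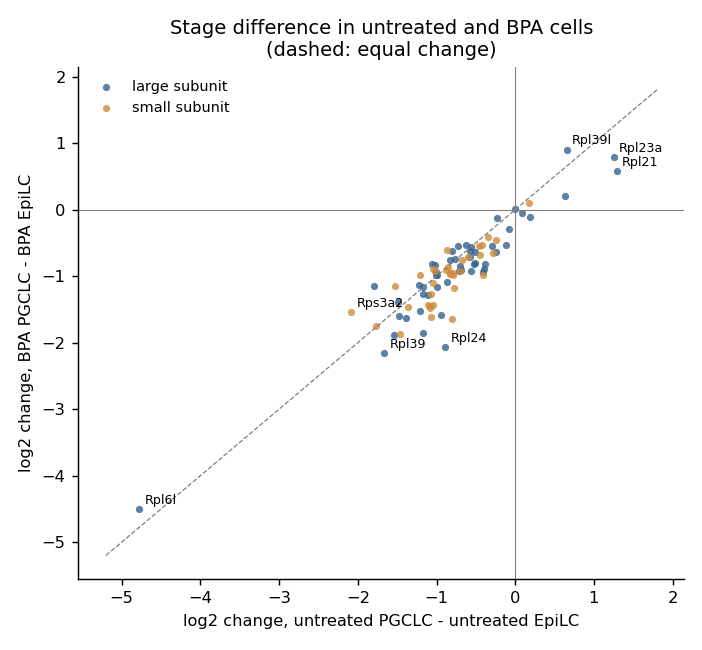
Fitted log2 change from EpiLC to PGCLC in untreated cells (horizontal) and in BPA cells (vertical) for each ribosomal protein gene, with the dashed line marking equal change. Rpl39l, Rpl23a and Rpl21 lie to the upper right, and Rpl6l lies apart at -4.77 and -4.51.

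The stalk and X-linked genes gave the following values between stages, with no test of one gene against another. Rplp0 fell from 2815, 2608 and 3952 CPM to 1572, 1482 and 1622 CPM (adjusted p = 5.45e-05), while Rplp1 (-0.51 ± 0.22, adjusted p = 0.0708) and Rplp2 (-0.29 ± 0.29, adjusted p = 0.404) did not pass in untreated cells. Rplp2 stood at 858, 743 and 1955 CPM in untreated EpiLCs and 930, 963 and 1008 CPM in untreated PGCLCs, so its sign depends on replicate 3 (0.22 without it). Rpsa (-0.87 ± 0.17) fell. Of the X-linked genes Rpl39, Rpl10 (-1.10 ± 0.13) and Rps4x (-0.79 ± 0.17) fell, and Rpl36a (-0.41 ± 0.22, adjusted p = 0.135) did not pass. Of the paralogs Rpl22l1 (-1.17 ± 0.12) and Rpl7l1 (-0.69 ± 0.09) fell, and Rpl10l (-0.12 ± 0.21), Rpl3l (0.63 ± 0.33) and Rps4l (-0.47 ± 0.26) did not pass. Rpl22, the parent of Rpl22l1, fell (-0.56 ± 0.18), as did Rpl3 (-1.02 ± 0.14), Rpl7 (-1.17 ± 0.14) and Rps27 (-1.05 ± 0.23). Rps12 (-0.71 ± 0.18), Rps18 (-1.36 ± 0.19), Rpl8 (-0.77 ± 0.22) and Rps29 (-0.80 ± 0.23), the abundant genes, fell as well.

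Ribosome production genes were also called between stages, where 25.2% of all genes were lower and 30.4% higher in untreated cells. The counts of these lists too were made without the length offset. Of the 38 ribosome biogenesis genes, 36 were lower in untreated PGCLCs and 38 in BPA PGCLCs, with none higher. Fbl, the box C/D methyltransferase of ribosomal RNA, changed by -1.65 ± 0.17 and Nop56, of the same particle, by -1.57 ± 0.11 in untreated cells. RNA polymerase I and III genes had 17 of 27 lower and 3 higher, mitochondrial ribosomal protein genes 53 of 77 lower and 2 higher, and TOP translation factors 12 of 16 lower and 1 higher, with Eef1g at -1.34 ± 0.13. Of the 20 regulators, 9 were higher and 3 lower, not far from the shares over all genes. Myc, a known activator of ribosome genes, stood at 160, 135 and 185 CPM in untreated EpiLCs and 26.3, 22.9 and 28.0 CPM in untreated PGCLCs (-2.64 ± 0.14), and Mycn at 15.3, 14.5 and 22.9 CPM against 199, 184 and 233 CPM (3.55 ± 0.17). The 2 paralogs of this factor family thus moved in opposite directions. Of 10 p53 response genes, 6 were higher and 1 lower.

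The interaction asks whether the BPA effect in PGCLCs differed from that in EpiLCs. No member passed, where 1.32% of 17608 genes did (1.01% higher, 0.312% lower). At an unadjusted p under 0.05 there were 6 members, against 13.9% of all genes. The median was -0.14 against 0.01 over all genes. Rpl22l1 had the smallest p (-0.69 ± 0.16, adjusted p = 0.0714). It passed with DESeq2 (adjusted p = 0.00543), with scaling by library size alone (adjusted p = 0.0293) and without untreated EpiLC replicate 3 (adjusted p = 0.00965). Rps29 (-0.84 ± 0.32, adjusted p = 0.262), Rpl30 (-0.64 ± 0.23), Rpl23a (-0.46 ± 0.18), Rps25 (-0.55 ± 0.25) and Rps3a1 (-0.40 ± 0.19) did not pass. Without untreated EpiLC replicate 3, 37 members were called lower and none higher, with a median of -0.46, and with the length offset 10 were. The answer for these genes thus depends on that library and on the length offset.

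Members varied together across the 12 libraries, as described by their correlation with the mean member profile. That profile includes each member itself, and its points share stage, depth and replicate 3. The median r was 0.95 over 86 members. Only 5 were under 0.5: Rpl39l (-0.43), Rpl23a (-0.41), Rpl3l (-0.23), Rpl21 (-0.13) and Rps2 (0.33). Outside the members, the closest were Ndufa2 (0.994), Nhp2 (0.994), Timm13 (0.994), Srp9 (0.994) and Elob (0.993), all above the members' median. The 14104 genes compared include the members, and predicted genes and genes that are not protein-coding were passed over in this ranking. Such a profile was thus not particular to ribosomal protein genes. Sequence shared with other genes limits single values, because 84 of 87 members have 50-base stretches found in transcripts of other genes and in 47 more than 50% of the transcript is so. Among the other 40 members, 32 were lower with BPA in PGCLCs and 27 and 30 were lower in the 2 stage comparisons. Rpl24 had at most 28 counts in any library, and 71.5% of its transcript overlaps Gm28037 on the same strand, so its level is uncertain.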

How the data were processed

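The authors deposited whole-read counts per Ensembl gene, 1 table per library, per the file headers, with genes under 10 counts left out, and CPM tables per stage. Tools listed in the submitters' processing notes are STAR, HTSeq, FastQC and bcl2fastq 2.19.1.403, with build mm10. Libraries were strand-specific per the labels' protocols, but no source used here states how HTSeq treated strand, so members that overlap a gene on either strand are uncertain. Unlisted genes were set to 0 and summary rows left out (no feature 4.42% to 10.7% of reads). Groups came from sample titles. The description of untreated EpiLC replicate 3 names another replicate, and the title was followed.

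Counts were filtered by filterByExpr, scaled by TMM and tested with edgeR 4.0.16 quasi-likelihood (R 4.3.3), Benjamini-Hochberg over all genes at 0.05, within stage (6 libraries) for BPA and in 1 fit of 12 libraries for stage and interaction. Levels are CPM from the 12-library scaling, while changes come from each comparison's fit. Changes are log2 ± SE with 3 libraries per group. The SE was derived from the edgeR test, as the absolute change divided by the square root of its F statistic. Lengths, types and overlaps are from GENCODE M21. Scripts were tested on simulated data. Alternatives were other scalings and filters, DESeq2 1.42.0, limma 3.58.1 (voom, and trend on log2 of deposited CPM plus 1), a replicate block and each library left out. The length offset and the count without members of shared sequence were added after seeing the data.

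The members, companion lists and tests were chosen with earlier results of these data known. Named genes are, per subunit, the 4 largest called rises and falls (or 3 smallest p), paralogs and parents, stalk genes and Rpsa, X-linked members, the 5 most abundant per kilobase, and up to 3 called genes per companion list. Some members that this rule selects are not reported here by name.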

Additional observations from a re-analysis of the deposited data

How the results depend on the processing

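In EpiLCs no member was called under any of 16 other settings. In PGCLCs the members lower with BPA numbered 68 in the reported fit, 54 to 68 with each library left out, 12 in 1 fit of all 12 libraries (whose spread includes untreated EpiLC replicate 3; the cause was not tested), 35 with the length offset and 32 among members without much shared sequence (fewer genes counted), and 11 were called in each of the 16 settings, 52 with every library left out. The member called higher numbered 0 in 1 fit of all 12 libraries, 0 with the replicate block and 0 to 1 with each library left out. Between untreated stages, calls lower ran from 53 to 70 and higher from 2 to 8 with a library left out. The 8 came without untreated EpiLC replicate 3, and 14 were higher with the length offset. Of members without much shared sequence, 27 were lower and 1 higher there, and 30 and 1 in BPA cells, where the length offset gave 5 higher. In the interaction 1 member was lower with DESeq2, 1 with library size alone and 10 with the length offset, and 0 to 37 with a library left out.

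The large to small ratio without paralogs was 1.25 in untreated and 1.27 in BPA EpiLCs and 1.39 in BPA PGCLCs, and as medians per kilobase 0.753, 0.71, 0.864 and 0.906 in untreated EpiLCs, BPA EpiLCs, untreated PGCLCs and BPA PGCLCs. With the length offset, positive members rose from 3 to 18 of 87 in PGCLCs with BPA and from 7 to 23 between untreated stages. Among the genes named in the report, changes turned sign for Rpl3 (0.0090), Rpl6 (0.031), Rpl39l (0.17) and Rps3a3 (0.24) in PGCLCs with BPA and for Rpl10l (0.25), Rpl36a (0.19), Rplp1 (0.085), Rplp2 (0.15) and Rps4l (0.022) between untreated stages. With each library left out the change of Rpl39l ran from -0.18 to 0.016 and that of Rps3a3 from -0.085 to 0.046 in PGCLCs with BPA, both highest without untreated replicate 2. Between untreated stages Rpl10l ran from -0.29 to 0.15 and Rplp2 from -0.54 to 0.22, both highest without untreated EpiLC replicate 3, and between BPA stages Rpl3l ran from -0.0018 to 0.32. None of these changes had passed the test in the reported fit. With the length offset, Rpl36a was called higher between untreated stages by the edgeR test (adjusted p = 0.0081).

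Libraries with the same replicate number did not clearly deviate together (r from -0.035 to 0.112, against -0.151 to 0.116 for different numbers). Between untreated and BPA EpiLCs the same-number values were 0.072, 0.035 and 0.112, and different numbers ran from -0.151 to 0.116. With 3 libraries per group this check cannot exclude a pairing. The replicate block left 68 members lower in PGCLCs, 62 lower and 3 higher between untreated stages, 71 and 2 between BPA stages and 0 in EpiLCs and in the interaction. Over all genes, calls in PGCLCs fell from 1362 higher and 959 lower to 383 and 294 without BPA replicate 1 and to 400 and 268 without BPA replicate 2, and with DESeq2 1458 were lower. Of the members, Rpl24 and Rpl3l lay under 5 CPM in every library, where counting error is largest.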
